A study of Mus musculus with 3 samples.

Results

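The mitochondrial ribosomal protein genes are nuclear genes that encode the protein part of the ribosome inside mitochondria. They were taken as every gene symbol that starts with Mrpl or Mrps followed by a number, which gave 77 of the 23238 symbols in the count tables, 48 of them Mrpl genes of the large subunit and 29 Mrps genes of the small subunit. The RNA came from the immortalized mouse myoblast line c2c12, grown in growth medium and then kept for 2 days in myogenic induction medium with horse serum. The cells were kept on tissue culture plates (TCP), on a hydrogel of 15% w/v methacrylated gelatin (GelMA), or on the same hydrogel with 1% w/v of the sulfonated polymer poly sodium 4-styrenesulfonate (GelMA-PSS). The study set GelMA-PSS against both control substrates to ask how a heparin-like surface alters the myogenic program. Each substrate has 1 library, so every difference below is between single libraries, has no replicate check and carries no p-value, and a difference between substrates cannot be told apart from a difference between cultures or library preparations.

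The ribosome of mitochondria translates only the messenger RNAs of the mitochondrial genome, which encode core subunits of the respiratory chain and ATP synthase. All of its proteins are made in the cytosol from nuclear genes and imported, and they assemble on ribosomal RNAs that the mitochondrial genome supplies. Skeletal muscle is rich in mitochondria, and myoblasts enlarge their mitochondrial network as they differentiate into myotubes.

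The counts summed to 119799095 on TCP, 87071144 on GelMA and 192171443 on GelMA-PSS. Each library was scaled to counts-per-million (CPM) with TMM factors, and log2 ratios were taken on log2(CPM + 1), which slightly understates the ratios of low genes. Of all symbols, 13169 reached a CPM of 1 in at least 1 library and were tested. All 77 mitoribosomal protein genes were among them, and all 77 reached that level in each of the 3 libraries, so the filter selected none of them. The least covered value was that of Mrpl35 on GelMA, with 966 counts. Counting error was therefore small, with a median standard error of 0.03 on the log2 scale for a ratio of GelMA-PSS to GelMA, but it leaves out variation between cultures.

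The labelled cell type was checked on marker genes. Myod1, the myoblast determination factor, had a CPM of 94.3 on TCP, 105 on GelMA and 119 on GelMA-PSS. Myog, which drives differentiation, had 1100, 895 and 1037, and the muscle intermediate filament gene Des had 3299, 2863 and 3154. All 10 myogenic markers passed the filter, and their summed CPM was 26893 on TCP, 19858 on GelMA and 16690 on GelMA-PSS, with the embryonic myosin gene Myh3 the most abundant at 10182, 6355 and 3037. Mef2c had 289, 181 and 81.0, Ckm 542, 430 and 380, Acta1 6192, 5379 and 5060, Tnnt3 4153, 2857 and 3117, and the fusion gene Tmem8c 1030, 773 and 670. Myf5, a gene of undifferentiated myoblasts, ran the other way at 13.9, 19.5 and 36.5. The libraries thus carried a muscle program in every case, with Myh3, Mef2c, Ckm, Acta1 and Tmem8c lowest and Myf5 highest on GelMA-PSS under every scaling, whereas Myod1 was lower than in both controls with TPM and Myog, Des and Tnnt3 were between the controls or lower depending on the scaling. The part of these differences in the results below was not tested.

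Markers of other cell types were low or near 0. The endothelial genes Pecam1, Cdh5 and Kdr summed to a CPM of 0.115, 0.264 and 0.282 on TCP, GelMA and GelMA-PSS, and 0 of the 3 passed the filter. Of the leukocyte genes, Ptprc and Adgre1 had at most 0.022 in any library, Csf1r stayed below the filter, and Cd68, at 1.53, 1.71 and 1.37, made up most of a sum of 1.75, 1.86 and 1.62. The adipocyte genes Adipoq and Plin1 were also below the filter, while Pdgfra (6.79, 10.0 and 7.44) and Cebpa (6.42, 7.79 and 7.71) brought the fibroblast and adipocyte sum to 13.3, 17.8 and 15.2. Epcam, Krt8 and Krt18 were near 0, and Cdh1, at 10.2, 8.26 and 5.31, made up nearly all of the epithelial sum of 10.3, 8.33 and 5.43. Each of these sums was far below the myogenic sum of the same library, although Myf5 alone was near the fibroblast and adipocyte sum on TCP and GelMA.

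The mitoribosomal protein genes as a set took their largest share of the counts on GelMA-PSS. Together they took 0.275% of the counts on TCP (95% Wilson interval from 0.274% to 0.276%), 0.255% on GelMA (from 0.254% to 0.257%) and 0.356% on GelMA-PSS (from 0.355% to 0.357%), intervals that cover counting error only. The share on GelMA-PSS was 1.39 times that on GelMA and 1.29 times that on TCP, and the share on GelMA was 0.928 times that on TCP. In these bulk samples, fewer cells of a kind and less RNA per cell cannot be told apart.

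Gene by gene, 76 of the 77 had their highest CPM on GelMA-PSS, against 45.3% of all tested genes, and 0 were lower than both, against 39.3%. Mrps25, which lay between the controls, was the exception. With library totals in place of TMM factors the count was 73 (35.5% of all tested genes) and with DESeq2 size factors 75 (44.9%), whereas TPM without TMM factors gave 39 higher (15.0%) and 20 lower than both (72.5%). The TPM scale moved the median ratio of all tested genes by -0.40 against GelMA and by -0.35 against TCP. The median log2 ratio of the 77 genes was 0.60 against GelMA and 0.42 against TCP, or 1.51-fold and 1.34-fold, while all tested genes had medians of 0.03 and 0.04. Library totals moved the medians of all tested genes by -0.13 and -0.10. Relative to all tested genes the members lay 0.55 and 0.37 higher with library totals, and 0.49 and 0.32 higher with TPM. The lower and upper quartiles of the members were 0.36 and 0.67 against the mean of the controls, and all 77 were above the median of all tested genes in that ratio.

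Most of these differences were modest in size. Past 1.5-fold against both controls, 22 members were higher, against 8.08% of all tested genes, and 0 were lower, against 7.18%. The 22 became 12 with a pseudocount of 5 (5.37% of all genes), 11 with library totals (4.84%), 4 with a correction for length and GC content (2.57%) and 0 with TPM (1.29%). Past 2-fold, 1 member, Mrpl33, was higher against both, where the background is 1.37%, and 0 were lower, where it is 1.16%. With library totals Mrpl33 was below 2-fold against both. For 73 of the 77 genes the 95% counting interval of both ratios lay above no difference, and Mrpl16, Mrpl37, Mrps2 and Mrps25 were the exceptions. These intervals cover counting error only, and the count was not made over all tested genes, of which 45.3% were higher than both controls.

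Between the controls the set leaned the other way. In GelMA, 9 members were higher than in TCP, against 48.3% of all tested genes, and 68 were lower, against 51.7%. The median log2 ratio of GelMA to TCP was -0.14, compared with -0.01 for all tested genes, and the members ran from -0.35 to 0.09. Past 1.5-fold, 0 members were higher on GelMA (background 3.5%) and 0 were lower (background 2.12%). With TMM factors GelMA-PSS thus came first, TCP next and GelMA last for 67 of 77 members, compared with 22.7% of all tested genes. On that scale 9 members had GelMA-PSS first and TCP last, compared with 22.5%. With TPM 39 members had GelMA-PSS first, where 15.0% of all genes did, so the 67 fell to 39 or fewer. The median between the controls was negative with TMM factors, library totals, DESeq2 size factors and TPM.

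**Figure D1:**
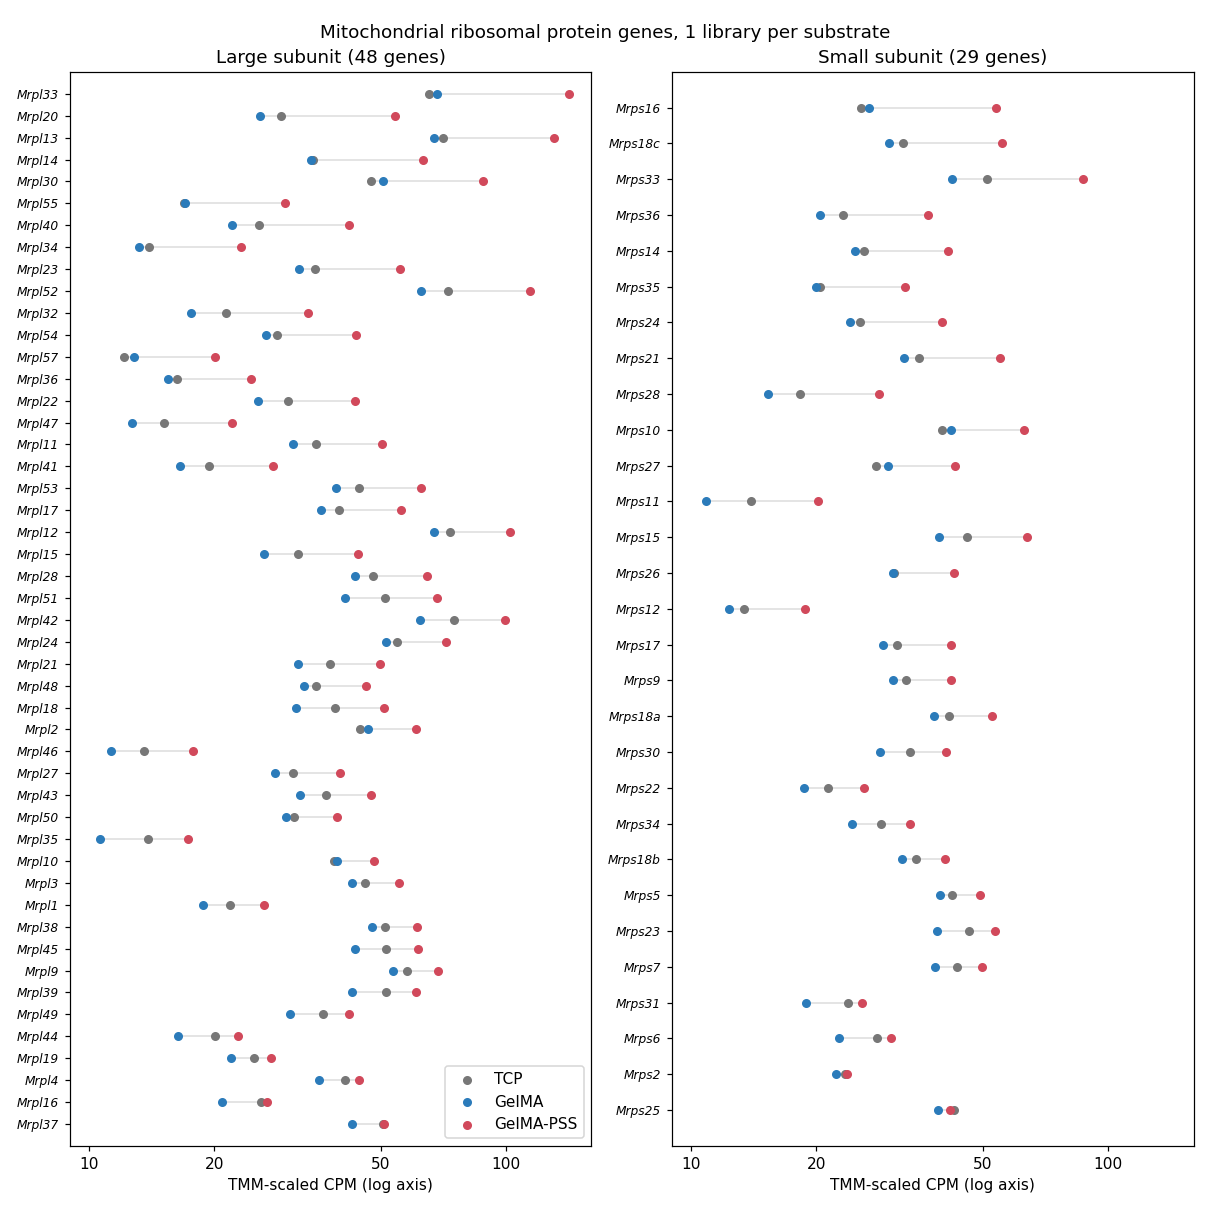
TMM-scaled CPM (log axis) of the 48 Mrpl and 29 Mrps genes in the TCP, GelMA and GelMA-PSS libraries, with 1 point per library and genes sorted by the log2 ratio of GelMA-PSS to the nearer control. The GelMA-PSS point is rightmost in 76 of 77 genes on this scale, against 45.3% of all tested genes. With TPM without TMM factors GelMA-PSS is highest in 39, against 15.0%.

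Of the 8 members with the largest ratios to the nearer control, 6 were Mrpl genes, as were 48 of all 77. Mrpl33, a small protein near the site where transfer RNA leaves the ribosome, had a CPM of 65.1 on TCP (95% counting interval from 63.7 to 66.6), 68.4 on GelMA and 141 on GelMA-PSS (from 139 to 143). This gave log2 ratios of 1.03 to GelMA and 1.10 to TCP. The controls were close to each other and GelMA-PSS stood apart, although 20.9% of the read-length windows of the Mrpl33 transcript also occur in the overlapping transcript Gm43809, so its counts are uncertain.

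Mrps16, which binds ribosomal RNA in the body of the small subunit, had 25.5 on TCP, 26.8 on GelMA and 53.9 on GelMA-PSS, with log2 ratios of 0.98 and 1.05 against GelMA and TCP. Mrpl20, an RNA-binding protein of the large subunit, had 28.8, 25.7 and 54.2 in the same order of libraries, with log2 ratios of 1.05 and 0.89. Mrpl13 had 70.4, 67.0 and 130, with log2 ratios of 0.95 and 0.88, and 20.5% of its windows lie antisense to Mtbp. In all of these genes the controls differed from each other far less than either did from GelMA-PSS.

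Mrpl14, which sits at the face where the subunits meet, had a CPM of 34.5, 34.0 and 63.1 on TCP, GelMA and GelMA-PSS. Mrpl30 had 47.4, 50.6 and 88.0, and Mrpl55 had 16.9, 17 and 29.5. Their log2 ratios to the nearer control were 0.85, 0.79 and 0.76, and Mrps18c, described below with its paralogs, had 0.77. These 8 genes kept GelMA-PSS as the highest library also on the TPM scale. Corrected for length and GC content, the log2 ratios to the controls' mean of Mrpl33, Mrps16, Mrpl20 and Mrpl13 were 0.37, 0.90, 0.43 and 0.52. Those of Mrpl14, Mrpl30, Mrps18c and Mrpl55 were 0.37, 0.34, 0.19 and 0.27.

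At the other end, some members barely differed. Mrps25 had a CPM of 42.6 on TCP, 39.1 on GelMA and 41.8 on GelMA-PSS, so that GelMA-PSS lay between the controls on this scale and below both with library totals and TPM. Its count is uncertain, since 72.0% of its windows lie antisense to Nr2c2 and a pseudogene. Mrpl37, a protein found in mitochondrial but not bacterial ribosomes, had 50.8, 42.8 and 50.8, level with TCP, and its log2 ratio against TCP turned negative with library totals, DESeq2 size factors and TPM. Mrps2 had 23.4, 22.3 and 23.6 and Mrpl16 had 25.9, 20.8 and 26.7, and both were lower than TCP with library totals and TPM. With library totals Mrps2 and Mrps25 were lower than in both controls, and no other member was.

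Mrps6, Mrps31, Mrpl4 and Mrpl19 completed the lower end with log2 ratios against TCP of 0.11, 0.11, 0.11 and 0.13. Against GelMA the same genes had 0.40, 0.43, 0.31 and 0.31, so GelMA was the low library for each. On the TPM scale these 4 genes were below both controls. Windows shared with other genes made up 27.6% of Mrps6 (with Slc5a3 and Gm49711) and 38.3% of Mrpl19 (with Gcfc2 and Tbck, antisense). On the main scale no member had its lowest CPM on GelMA-PSS. Corrected for length and GC content, Mrps25 (0.43 and 0.22 to GelMA and TCP) and Mrpl19 (0.55 and 0.32) were above both controls, while Mrpl16 (-0.14 and -0.34), Mrps6 (-0.13 and -0.35), Mrps2 (-0.13 and -0.13), Mrpl37 (-0.04 and -0.21) and Mrps31 (-0.01 and -0.24) were below both.

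By subunit, 48 of 48 Mrpl genes were higher than both controls (23 with TPM), against 45.3% of all tested genes (15.0% with TPM). The median log2 ratio of the Mrpl genes was 0.63 to GelMA and 0.41 to TCP. Of the 29 Mrps genes, 28 were higher (16 with TPM), with medians of 0.52 and 0.46. The subunits therefore did not separate, and the symbols do not follow the particle strictly, since Mrps30 and Mrps18a are built into the large subunit. The Mrpl genes summed to 0.184%, 0.170% and 0.240% of the counts on TCP, GelMA and GelMA-PSS, and the Mrps genes to 0.0917%, 0.0857% and 0.116%.

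Members with a bacterial counterpart form the older core of the ribosome, while the others were added in the mitochondrial lineage. The split was made by the numbers in the symbols, apart from Mrpl47, Mrpl55 and Mrps24, so it is approximate. Mrps36 was counted among those without a counterpart. The 47 members with a counterpart were all higher than in both controls, against 45.3% of all tested genes. Their medians were 0.63 against GelMA and 0.46 against TCP. Of the 30 without one, 29 were higher, with medians of 0.52 and 0.37, the latter -0.03 with TPM. The median transcript of the former had 1162 bases and that of the latter 1417.5. Once length and GC content were corrected for, their medians relative to the controls' mean were 0.16 and 0.14. With TPM, 27 of the 47 were higher than both controls and 13 lower, and 12 of the 30 were higher and 7 lower. On that scale 15.0% of all genes were higher and 72.5% lower.

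The stalk recruits translation factors to the large subunit. Mrpl12, the protein that forms its mobile arm, had a CPM of 73.3 on TCP, 67.3 on GelMA and 102 on GelMA-PSS. Mrpl11, at its base, had 35.1, 30.8 and 50.4, and Mrpl10, which anchors the arm, had 38.8, 39.3 and 48.2. All 3 stalk genes were higher than in both controls, against 45.3% of all tested genes. The log2 ratios of Mrpl12, Mrpl11 and Mrpl10 to the nearer control were 0.48, 0.51 and 0.29. On the TPM scale Mrpl10 was lower than both controls.

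Around the exit of the tunnel for the growing chain, all 6 genes were higher than in both controls, against 45.3% of all tested genes. The medians of the 6 were 0.69 against GelMA and 0.50 against TCP. Mrpl45, which ties the ribosome to the inner membrane, had a CPM of 51.5, 43.3 and 61.5 on TCP, GelMA and GelMA-PSS. Mrpl23 had 34.9, 31.9 and 55.6, the largest ratio to the nearer control of this ring at 0.66, but 64.0% of its windows also occur in the pseudogene Mrpl23-ps1. The remaining ring genes Mrpl17, Mrpl22, Mrpl24 and Mrpl47 had ratios to the nearer control of 0.48, 0.52, 0.39 and 0.51. On the TPM scale Mrpl24 and Mrpl45 were below TCP.

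The central protuberance of the mitochondrial ribosome holds a transfer RNA in the place of the small ribosomal RNA of bacteria. Its 6 listed proteins were all higher than in both controls, against 45.3% of all tested genes. The medians of the 6 were 0.56 against GelMA and 0.37 against TCP, the latter -0.03 with TPM. Mrpl40 led with a CPM of 25.6, 22.1 and 42.1 on TCP, GelMA and GelMA-PSS, whereas Mrpl38 had 51.1, 47.8 and 61.1. Mrpl18, Mrpl27, Mrpl46 and Mrpl48 had log2 ratios to the nearer control of 0.38, 0.36, 0.37 and 0.38, and these 4 were below TCP on the TPM scale, where Mrpl38 was below both controls.

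The 3 paralogs of bacterial protein S18 differ in where they sit, with Mrps18c in the conserved position, Mrps18b elsewhere in the small subunit and Mrps18a in the large subunit. Mrps18c had a CPM of 32.3 on TCP, 29.8 on GelMA and 55.7 on GelMA-PSS. Mrps18a had 41.5, 38.3 and 52.6, and Mrps18b had 34.7, 32.0 and 40.7. All 3 were highest on GelMA-PSS and lowest on GelMA, the order of 22.7% of all tested genes. The ratios to the nearer control were 0.77, 0.33 and 0.23 for Mrps18c, Mrps18a and Mrps18b. Mrps18a and Mrps18b were below both controls on the TPM scale, and 56.8% of the windows of Mrps18b occur in an antisense transcript or a pseudogene. Corrected for length and GC content, the log2 ratios of Mrps18c, Mrps18a and Mrps18b to the controls' mean were 0.19, -0.06 and -0.14.

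Further mitoribosomal proteins carry symbols outside the naming scheme, and 6 of the 7 searched were listed, since Mrp63 is the older name of Mrpl57. Of these 6 genes, 5 were higher than in both controls and 0 lower, against 45.3% and 39.3% of all tested genes. With TPM 3 were higher and 3 lower, where 15.0% and 72.5% of all genes were. The medians of the 6 were 0.53 against GelMA and 0.40 against TCP, the latter -0.01 with TPM. Chchd1, a small-subunit protein, had a CPM of 29.7 on TCP, 27.3 on GelMA and 54.5 on GelMA-PSS. Ict1, a peptidyl-tRNA hydrolase built into the large subunit, had 26.3, 26.9 and 43.0, and Aurkaip1 had 57.2, 52.8 and 83.4. Dap3, a GTP-binding protein, had 53.4, 47.9 and 64.1, and Ptcd3, with RNA-binding repeats, had 62.8, 57.8 and 64.2. Gadd45gip1, at 49.2, 42.5 and 46.3, lay between the controls here and below both with library totals and TPM. Ptcd3 was below TCP with library totals, and both Ptcd3 and Dap3 were below both controls on the TPM scale. In the opposite case, Mrps36 matches the naming rule but is known as a subunit of the 2-oxoglutarate dehydrogenase complex, and without it the median against GelMA was 0.58.

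Between the controls the members differed little. The largest ratios of GelMA to TCP were those of Mrpl30 (0.09), Mrps27 (0.09) and Mrpl33 (0.07). The smallest were those of Mrpl35 (-0.35), Mrps11 (-0.33) and Mrps31 (-0.32). Mrpl35 had a CPM of 13.9 on TCP, 10.6 on GelMA and 17.3 on GelMA-PSS, and Mrps11 had 14, 10.9 and 20.1, so for both the GelMA library was the low one, although Mrpl35 on GelMA-PSS was below TCP with TPM. Mrps27, an RNA-binding repeat protein of the small subunit, had 27.7, 29.6 and 42.9.

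The transcripts of the members differed widely in level per length. As CPM per kilobase of transcript averaged over the 3 libraries, Mrpl52 (199), Mrpl33 (191), Mrpl42 (118) and Mrps21 (83.8) were the highest. Mrpl35 (3.74), Mrpl19 (4.94), Mrpl47 (4.95) and Mrpl57 (5.21) were the lowest, and the ratio of the highest to the lowest level was 53.1. The median level per kilobase of the 77 genes was 23.1 on TCP, 21.7 on GelMA and 34.0 on GelMA-PSS. These levels depend on the annotated ends, since 1 transcript per gene was used and some, such as Mrpl17 with 7300 bases, have a long annotated tail behind a short coding sequence of 528 bases. Per kilobase of coding sequence the highest level was 28.0 times the lowest, and across the 77 genes the levels on both scales had a Spearman's rho of 0.66.

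The ranking of the members by CPM was largely kept between libraries. Spearman's rho across the 77 genes, which are not independent replicates, was 0.98 between TCP and GelMA, 0.92 between GelMA and GelMA-PSS, and 0.91 between TCP and GelMA-PSS. Over all 13169 tested genes the same values were 0.99, 0.97 and 0.97. The log2 ratio against GelMA showed little relation to the mean CPM of a member, with a rho of -0.03.

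In these libraries the ratio of GelMA-PSS to either control varied with transcript length, and the members are short genes. Their median transcript had 1226 bases and their median coding sequence 576, compared with 2869 and 1401 for all tested genes with an annotation. Across the 77 members, Spearman's rho between ratio and transcript length was -0.42 against GelMA and -0.41 against TCP, and with coding length it was -0.58 and -0.57. Over the 13060 tested genes with a length, rho with transcript length was -0.66 and -0.50. Shorter members thus tended to have higher ratios, as shorter genes did in general.

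The members were also set against other genes of similar length. The tested genes were split by transcript length into 10 bins of near-equal size. In the shortest bin, up to 1107 bases, the 31 members, of which 22 lay above the others' median, had a median log2 ratio to the controls' mean of 0.66 and the other 1276 genes 0.55. In the next bin, up to 1580 bases, 18 members had 0.42 and the others 0.35, with 11 members above. The remaining 28 members had longer transcripts, and 27 of them lay above the median of the other genes of their bin. There the other genes had medians from 0.25 down to -0.55, while the members had medians from 0.13 to 1.02, each over 6 or fewer members. In all, 60 of 77 members lay above the median of the other genes of their bin. The bins follow annotated transcript length, and members in the longer bins still have short coding sequences. The longest coding sequence of a member had 1326 bases, whereas the median over all tested genes was 1401. Bins by coding length were not made, so 27 of 28 does not show a difference beyond length.

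**Figure D2:**
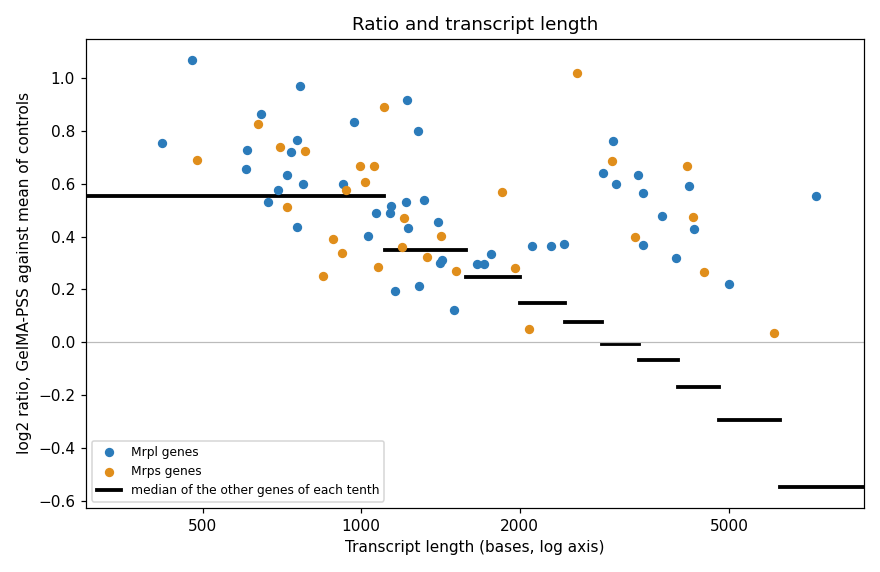
Log2 ratio of GelMA-PSS to the mean of the controls, TMM-scaled CPM, against transcript length in bases (log axis) for the Mrpl and Mrps genes, 1 point per gene, with black lines for the median of the other genes in each of 10 bins of transcript length, drawn within the plotted range. In the shortest bin 22 of 31 members lie above the line, in the next bin 11 of 18, and in the longer bins 27 of 28. Bins follow annotated transcript length, and the longest coding sequence of a member has 1326 bases.

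Loess fits were then used to remove the trend with length and GC content from every ratio. The corrected medians of the members were 0.20 relative to GelMA and 0.11 relative to TCP, and that of GelMA relative to TCP was -0.12. On this corrected scale 56 members were higher than both controls, where 40.7% of all genes were, and 10 were lower, where 40.5% were. Past 1.5-fold against both, 4 members were higher, where 2.57% of all genes were, namely Mrpl17, Mrps16, Mrps26 and Mrps35, of which Mrpl17, Mrps26 and Mrps35 have annotated transcripts of 7300, 4278 and 4162 bases. With coding length in place of transcript length, a correction chosen after seeing the data, the medians were 0.22, 0.12 and -0.08, 56 members were higher than both controls (42.0% of all genes), and 0 passed 1.5-fold (2.37%).

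Other gene lists give the scale of these differences. The 76 cytosolic ribosomal protein genes were all higher than in both controls, under TPM as well. Of all tested genes, 45.3% were higher, or 15.0% under TPM. The medians of the 76 were 0.96 against GelMA and 1.06 against TCP. Unlike the mitochondrial set, 66 of the 76 were higher on GelMA than on TCP, against 48.3% of all tested genes. The nuclear genes of the respiratory chain, whose partners the mitochondrial ribosome makes, had 77 of 80 higher and 1 lower. The shares of all tested genes were 45.3% and 39.3%, and the medians of the list were 0.70 and 0.52. With TPM 54 were higher and 13 lower, where 15.0% and 72.5% of all genes were. On GelMA 74 of the 80 were lower than on TCP, against 51.7% of all tested genes. Of 30 tested genes of mitochondrial protein import, 28 were higher and 1 lower, against 45.3% and 39.3% of all tested genes. The medians of the import list were 0.48 and 0.37. With TPM 13 were higher and 12 lower, where 15.0% and 72.5% of all genes were, and the median against TCP was -0.04. With length and GC content corrected for, the medians relative to the controls' mean were 0.49 for cytosolic ribosomal proteins, 0.12 for the respiratory chain, 0.25 for import and 0.16 for mitoribosomal proteins.

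**Figure D3:**
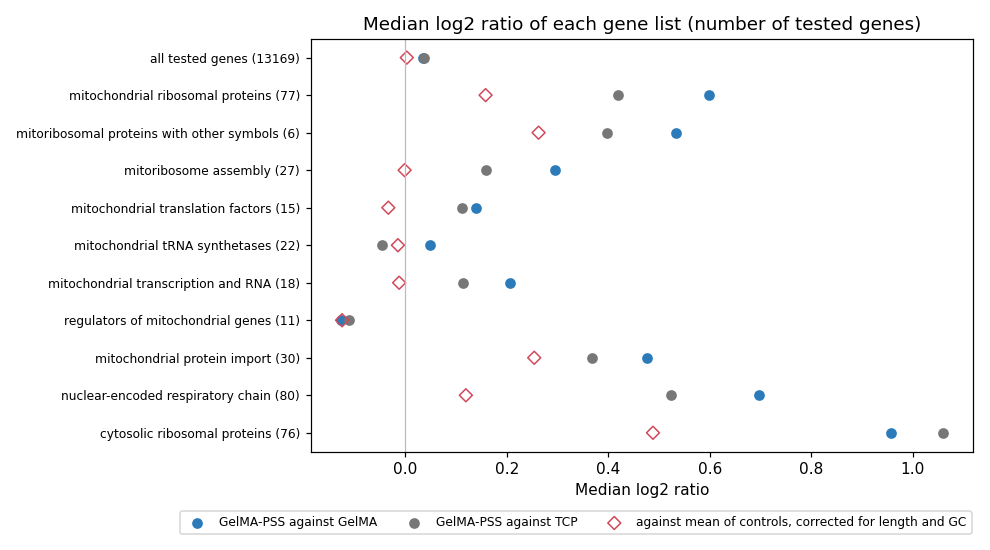
Median log2 ratio (horizontal axis, TMM-scaled CPM) of each gene list in GelMA-PSS against GelMA (blue) and against TCP (grey), and against the mean of the controls after the length and GC correction (open diamonds), with the number of tested genes in brackets. The mitoribosomal proteins lie at 0.60, 0.42 and 0.16, and all tested genes at 0.03, 0.04 and 0.00.

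The genes that assemble and serve the mitochondrial ribosome showed smaller ratios than its proteins. Of 27 assembly genes, 22 exceeded both controls and 4 were lower (45.3% and 39.3% of all genes), with medians of 0.29 against GelMA and 0.16 against TCP, whereas with TPM 3 were higher and 20 lower, where 15.0% and 72.5% of all genes were. Mettl15, a methyltransferase of the small ribosomal RNA, had a CPM of 4.66 on TCP, 5.07 on GelMA and 7.80 on GelMA-PSS, and Mrm1, a methyltransferase of the large ribosomal RNA, had 5.60, 5.19 and 7.88. Malsu1, which binds Mrpl14 in large subunits under assembly, had 15.5, 14.1 and 22.3, although 52.6% of its windows lie antisense to Igf2bp3. The helicase gene Dhx30 (61.6, 60.1 and 49.2), the GTPase gene Noa1 (22.6, 17 and 15.8) and the endoribonuclease gene Ybey (6.58, 6.77 and 5.32) were lower than in both controls. The corrected median of the list relative to the controls' mean was -0.002, compared with 0.003 over all genes. On that scale 10 were higher and 9 lower than both controls, where 40.7% and 40.5% of all genes were.

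Among 15 translation factors, 10 exceeded both controls and 4 lay below them (45.3% and 39.3% of all genes), and the medians were 0.14 against GelMA and 0.11 against TCP, whereas with TPM all 15 were below both, as 72.5% of all genes were. Corrected for length and GC content, the medians were -0.03 and -0.08, with 4 higher and 7 lower (40.7% and 40.5% of all genes). Mrrf, the recycling factor, had a CPM of 25.3, 24.2 and 32.7 on TCP, GelMA and GelMA-PSS, Tsfm, the exchange factor of Tufm, had 29.2, 25.1 and 34.7, and the initiation factor Mtif3 had 25.9, 26.5 and 33.4. Taco1, an activator of Cox1 translation (15.9, 15.1 and 13.2), and the recycling GTPase Gfm2 (52.9, 47.1 and 43.9) were lower than in both controls, and Mtif2 (34.4, 29.0 and 29.5) lay between them here and below both with library totals and TPM. Tufm, the elongation factor that brings in transfer RNA, had 87.1, 79.1 and 92.8, but 66.8% of its windows also occur in a pseudogene. On the TPM scale Mrrf, Tsfm, Mtif3 and Tufm were below both controls, and with library totals Tufm was below TCP.

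The 22 genes listed for the charging of mitochondrial transfer RNAs had 8 above and 8 below both controls (45.3% and 39.3% of all genes) and medians of 0.05 against GelMA and -0.05 against TCP, the former -0.09 with library totals. With library totals 5 were above and 13 below both (35.5% and 49.2% of all genes), and with TPM 20 were below both, where 72.5% of all genes were. Lars2, for leucine, stood apart from the rest of the list with a CPM of 428 on TCP, 1040 on GelMA and 147 on GelMA-PSS, log2 ratios of -2.81 and -1.53. The summed CPM of the list was 1334, 1874 and 1043 with this gene, and 906, 834 and 895 over the other 21, so the high sum on GelMA rested on Lars2 alone. Gars (327, 277 and 286) and Kars (171, 167 and 197) were the most abundant of these 21. Fars2 (13.7, 15.8 and 20.9) and Rars2 (28.6, 27.3 and 36.5) had the largest ratios to the controls' mean, and Aars2 (23.6, 21.8 and 19.2) and Tars2 (43.5, 37.7 and 36.8) the smallest after Lars2. Rars2 was below both controls on the TPM scale, and Fars2 was below GelMA there.

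Of 18 genes of mitochondrial transcription and RNA processing, 11 exceeded both controls and 5 lay below them (45.3% and 39.3% of all genes), with medians of 0.21 against GelMA and 0.11 against TCP, whereas with TPM 5 were higher and 10 lower, against 15.0% and 72.5% of all genes. The length and GC correction turned the medians to -0.04 and -0.03, with 4 higher and 8 lower (40.7% and 40.5% of all genes). Slirp, which stabilises mitochondrial messenger RNAs, had a CPM of 39.8 on TCP, 38.2 on GelMA and 74.7 on GelMA-PSS, while its binding partner Lrpprc had 123, 114 and 89.5. The Slirp value is uncertain, as 89.7% of its windows lie antisense to Snw1 or Alkbh1. Polrmt, the RNA polymerase, had 54.0, 49.0 and 39.0, and Tfam, which packages the mitochondrial genome, had 43.7, 43.2 and 58.5. Hsd17b10 (44.6, 45.1 and 67.5) and Mterf1a (2.36, 2.98 and 4.55) were also higher than in both controls, with 42.9% of Mterf1a shared with Mterf1b, and Elac2, which trims transfer RNA, was lower (45.6, 43.7 and 37.0). On the TPM scale Tfam was below GelMA.

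Regulators known to act on nuclear genes for mitochondrial proteins were not higher as a list, with 3 of 11 above and 6 below both controls (45.3% and 39.3% of all genes) and medians of -0.13 against GelMA and -0.11 against TCP, and with TPM all 11 were below both, against 72.5% of all genes. Their median transcript had 4153 bases, and the corrected medians were -0.18 and -0.009. The coactivator genes Ppargc1a (6.77, 6.60 and 4.33), Ppargc1b (9.77, 11.5 and 5.01) and Pprc1 (39.5, 38.9 and 25.7) all had their lowest CPM on GelMA-PSS. So did Myc (58.1, 55.8 and 43.7), Gabpb2 (25.4, 32.5 and 16.9) and Gabpa (79.1, 79.9 and 73.1), which encodes the DNA-binding ETS part of the factor that Gabpb2 belongs to. Corrected for length and GC content, the log2 ratios to the controls' mean of Ppargc1a, Ppargc1b and Pprc1 were -0.24, -0.83 and -0.25. Those of Myc, Gabpb2 and Gabpa were -0.46, -0.19 and 0.003. Gabpb1 (20.6, 21.8 and 21.8) was barely above both controls on the main scale, and Yy1 (46.5, 46.3 and 46.5) lay between them. Their corrected ratios were 0.11 and 0.38. Nrf1 had 31.8, 36.4 and 35.9 and lay between the controls here and below both with TPM, and Esrra (35.0, 34.9 and 39.4) and Nfe2l2 (114, 116 and 142) were higher than in both, though Esrra was below both on the TPM scale and Nfe2l2 likewise.

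In the genome the members were scattered, on 17 chromosomes of GRCm38, with at most 10 on a single one, chromosome 11. Only Mrpl46 and Mrps11 lay within 100 kb of each other, on chromosome 7, where the annotated genes overlap by their ends. Their log2 ratios to the controls' mean were 0.49 and 0.67. Of the 77 members, 18 shared more than 10% of their read-length windows with the transcripts of another gene, 10 of them on the same strand, and Mrpl53 shared 100% with the overlapping gene Gm42688. Without these 18, chosen after seeing the data, all of the other 59 genes were higher than both controls, against 45.3% of all tested genes. The medians of the 59 were 0.61 and 0.42.

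Since the members were higher together, their promoters were searched for short motifs of factors known for mitochondrial genes. RefSeq sequences from 250 bases before to 50 bases after the gene start (GRCm38.p6) matched 68 of the 77 genes, with 74 promoters. Mrpl4, Mrpl13, Mrpl15, Mrpl19, Mrpl38, Mrpl54, Mrps28, Mrps34 and Mrps35 had no entry. The motifs were CCGGAAG for ETS factors such as GABPA, GCATGCGC for NRF1, AAGATGGC for YY1 and CACGTG, the E-box that MYC binds, each on either strand and without overlap between different motifs in member promoters.

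The ETS motif occurred in 25 of 68 member genes (36.8%), in 19.5% of 9861 tested genes with a promoter, and in 8.86% of all 32851 promoters. The YY1 motif occurred in 12 member genes (17.6%), 5.19% of tested genes and 2.75% of all promoters, and the NRF1 motif in 8 (11.8%), 5.88% and 2.71%. The E-box occurred in 5 (7.35%), 11.6% and 7.15%, or 8.09% of all 27025 genes with a promoter. The shares of the ETS, YY1 and NRF1 motifs were thus larger in the members than in tested genes and that of the E-box, over 5 genes, was not, which describes letters in these windows and not binding. Member promoters also had a median GC content of 58.5% and 21.5 CpG sites, compared with 52.7% and 7 in all promoters. These medians were not computed for the promoters of tested genes, so this gap cannot be read as a trait of the members among expressed genes.

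Any of the motifs occurred in 39 of the 68 member genes, against 35.8% of tested genes, in 4 of the 7 with a promoter among the 8 largest ratios to the nearer control and in 1 of 6 among the 8 smallest. Over all 68 genes, the median log2 ratio to the controls' mean was 0.53 with any motif and 0.49 without, so the ends differ more than the whole set. Relative to the controls' mean, the median log2 ratio was 0.55 in members with the ETS motif and 0.48 in those without. It was 0.46 with and 0.51 without the NRF1 motif, 0.52 and 0.50 for YY1, and 0.60 and 0.51 for the E-box. Promoters are shown for Mrpl33, the S18 paralogs and Mrpl37. Mrpl33 had the largest ratio to the nearer control, the S18 paralogs differed in ratio, and Mrpl37 was level with TCP. Mrpl37 is the exception at the lower end, where Mrps25, Mrps2, Mrpl16, Mrps6 and Mrps31 held none of the motifs in this window. Each sequence runs 5′ to 3′ on the strand of its gene, with the motifs in capitals. RefSeq places the start of Mrpl33 inside the gene as GENCODE draws it, from 31596935 to 31664384 on chromosome 5.

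Mrpl33, chr5:31613701-31614000, plus strand: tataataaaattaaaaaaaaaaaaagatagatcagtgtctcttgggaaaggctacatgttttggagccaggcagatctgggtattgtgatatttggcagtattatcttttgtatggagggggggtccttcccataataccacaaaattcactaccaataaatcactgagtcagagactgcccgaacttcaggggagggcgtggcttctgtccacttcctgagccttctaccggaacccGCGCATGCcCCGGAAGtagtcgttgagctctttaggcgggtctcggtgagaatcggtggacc
Mrps18c, chr5:100798509-100798808, plus strand: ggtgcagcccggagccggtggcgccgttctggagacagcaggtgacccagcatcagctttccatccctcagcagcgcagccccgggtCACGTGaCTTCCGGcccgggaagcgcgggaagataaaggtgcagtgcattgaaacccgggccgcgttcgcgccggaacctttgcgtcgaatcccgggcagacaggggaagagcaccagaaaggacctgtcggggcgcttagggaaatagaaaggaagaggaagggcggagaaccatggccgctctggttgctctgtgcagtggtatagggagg
Mrps18a, chr17:46110754-46111053, plus strand: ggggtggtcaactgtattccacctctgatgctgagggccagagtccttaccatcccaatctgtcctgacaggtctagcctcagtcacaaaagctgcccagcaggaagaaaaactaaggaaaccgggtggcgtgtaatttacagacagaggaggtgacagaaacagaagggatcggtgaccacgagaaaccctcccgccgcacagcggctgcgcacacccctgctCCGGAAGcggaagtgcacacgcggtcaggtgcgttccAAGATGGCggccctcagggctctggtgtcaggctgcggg
Mrps18b, chr17:35916391-35916690, minus strand: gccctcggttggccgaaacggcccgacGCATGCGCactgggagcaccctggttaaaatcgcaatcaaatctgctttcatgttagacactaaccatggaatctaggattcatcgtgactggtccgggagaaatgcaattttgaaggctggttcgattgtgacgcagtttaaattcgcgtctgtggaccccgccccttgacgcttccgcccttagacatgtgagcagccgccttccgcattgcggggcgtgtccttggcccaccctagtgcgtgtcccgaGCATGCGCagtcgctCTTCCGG
Mrpl37, chr4:107066817-107067116, minus strand: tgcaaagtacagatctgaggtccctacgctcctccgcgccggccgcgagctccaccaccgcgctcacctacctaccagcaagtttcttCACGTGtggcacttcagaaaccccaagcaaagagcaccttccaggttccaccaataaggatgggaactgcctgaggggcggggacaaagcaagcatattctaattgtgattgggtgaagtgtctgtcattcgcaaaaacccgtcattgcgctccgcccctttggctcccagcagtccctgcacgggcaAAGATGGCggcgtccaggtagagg

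Mrpl33 and Mrps18b hold both the NRF1 and the ETS motif, and their log2 ratios to the nearer control were 1.03 and 0.23. Mrps18c holds the E-box and the ETS motif with a ratio of 0.77, and Mrps18a the ETS and YY1 motifs with 0.33. Mrpl37 holds the E-box and the YY1 motif with a ratio of 0.00. Mrpl17 and Mrpl22, with the same pair as Mrpl33 and Mrps18b, had 0.48 and 0.52.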

How the data were processed

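The authors deposited raw counts for 3 libraries as 1 value per symbol, from strand-specific paired-end reads. Their processing notes name TopHat, edgeR, mm10 and hg19 without a role, their methods define differential genes by FPKM, which was not used here, and the methods name a TruSeq kit and the labels a SMARTER kit. The counting annotation and strand setting are not given, nor is it known if reads or pairs were counted; counting intervals are too narrow if both mates were. Of 23282 lines, those sharing 1 of 35 repeated symbols were summed. TMM factors were 1.02, 1.04 and 0.943 for TCP, GelMA and GelMA-PSS (edgeR 4.0.16, R 4.3.3). Symbols with a CPM of at least 1 in any library entered, and the pseudocount was 1. With 1 library per substrate no test is possible. Lengths and GC content came from 1 GENCODE vM21 transcript per gene (22197 symbols matched directly and 667 through older names), and the correction used 2 loess fits (statsmodels 0.14.6) whose span was 0.3. Windows of the read length were compared with all other transcripts. Alternatives covered pseudocount, filter, scaling (DESeq2 1.42.0 among them), fold, membership and the correction. Python 3.11.15, numpy 2.4.6, pandas 2.3.3, scipy 1.17.1 and matplotlib 3.10.9 were used.

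The members and lists were chosen with earlier results of these data known. Genes were named as the 8 largest and 8 smallest ratios to the nearer control, the 4 highest and 4 lowest levels per kilobase, the 3 largest and 3 smallest ratios between the controls, the members of the structural lists, and up to 3 of the largest and 3 of the smallest ratios to the controls' mean of each pathway list, with Tfam, Tufm, Polrmt, Nrf1, Gabpa, Ppargc1a and Myc. Any others were named after their values were seen.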

Additional observations from a re-analysis of the deposited data

How the results depend on the processing

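Each substrate has 1 library, so no replicate could be left out. No paired analysis was possible because each substrate has 1 library. The medians of the mitoribosomal protein genes kept their sign under all 14 alternatives, from 0.13 to 0.61 for GelMA-PSS against GelMA, from 0.00726 to 0.43 against TCP and from -0.149 to -0.0807 for GelMA against TCP. In the main setting the medians were 0.60, 0.42 and -0.14. There 76 genes were higher than both controls (45.3% of all genes) and 22 were past 1.5-fold (8.08%). In the same order of quantities, a pseudocount of 5 gave 0.51, 0.38 and -0.13 with 12 past 1.5-fold (5.37% of all genes). A pseudocount of 0.1 gave 0.43 against TCP. Library totals gave 0.45, 0.31 and -0.11 with 11 past 1.5-fold (4.84% of all genes), and DESeq2 size factors 0.41 against TCP. TPM without TMM factors gave 0.13, 0.00726 and -0.0942 with 39 higher (15.0% of all genes) and 0 past 1.5-fold (1.29%). The length and GC correction gave 0.20, 0.11 and -0.12 with 4 past 1.5-fold (2.57% of all genes). A threshold of 2-fold left 1 gene and the planned lower threshold gave 52. The following alternatives, through the removal of Mrps36, were chosen after seeing the data. Coding length in the correction gave 0.22, 0.12 and -0.0807 with 0 past 1.5-fold (2.37% of all genes). TPM from coding lengths gave 0.16, 0.0393 and -0.0863. On that scale 45 were higher (15.6% of all genes) and 1 passed 1.5-fold (1.3%). Leaving out genes with shared windows gave 0.61 against GelMA, and leaving out Mrps36 gave 0.58. Without the 100 most abundant genes the summed shares of TCP, GelMA and GelMA-PSS were 0.358%, 0.330% and 0.476%. Both filters on low values, the added symbols and the removal of pseudogene symbols, of which there were 0, left the medians within counting error. The cause of these shifts was not tested. Counting depth limits little here, as the smallest count of a member was 966, whereas variation between cultures was not measured.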
